A study of Mus musculus with 15 samples.

Results

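The members described here were the 4 Id genes of the mouse, Id1, Id2, Id3 and Id4, chosen by gene symbol, with no threshold on a measured value. All 4 were found among the genes of the 15 digital expression tables of a single-cell RNA-seq (Drop-seq) study of medulloblastoma. Of 51841 cell barcodes, 37946 cells (73.2%) passed the criteria on depth and quality. The 3 groups held 5 mice each. WT mice were C57BL/6 pups with no transgene, and their cerebella were taken on day P7. Tumors arose in M-Smo mice, Math1-Cre:SmoM2/EYFP loxP/loxP on the C57BL/6 background, in which Cre expressed from Math1 regulatory sequence turns on an oncogenic Smo allele in cerebellar granule neuron progenitors (CGNPs). M-Smo mice received 3 daily intraperitoneal injections of NMP:PEG alone (Vehicle) or of 75 mg/kg vismodegib, an inhibitor of the SHH receptor component SMO, on days P12 to P14, and tumors were collected on day P15. WT cells were captured on a PDMS device without human cells, and tumor cells on a glass device with spiked-in human HEK293 cells, an embryonic kidney line, whose barcodes the authors removed. Age, genotype, device and spike-in thus differed together between WT and tumors and cannot be told apart.

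Id genes encode helix-loop-helix proteins that lack a DNA-binding region. They pair with the E proteins, the common partners of tissue-specific bHLH factors such as ATOH1 and NEUROD1, and so keep those factors from DNA; Id expression is a familiar feature of progenitors, glia and vessels and usually recedes as neurons mature. Id1, Id2 and Id3 are classic early targets of bone morphogenetic protein (BMP) signaling, in which ligand-bound receptors phosphorylate SMAD1, SMAD5 and SMAD9. CGNPs divide in the external granule layer in response to SHH, and in SHH-driven medulloblastoma cells of this lineage keep dividing.

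In the GENCODE M21 annotation of GRCm38 (mm10), Id1 lies at chr2:152736251-152737410 on the plus strand, Id2 at chr12:25093799-25097140 on the minus strand, Id3 at chr4:136143497-136145755 on the plus strand and Id4 at chr13:48261228-48266026 on the plus strand. Id4 is overlapped on the opposite strand by A330033J07Rik, annotated as antisense, and by Gm49291, whereas no member overlaps another member. RefSeq promoters of GRCm38.p6 were matched by symbol for Id2, Id3 and Id4. The 250 bases upstream of each start were searched on both strands for 2 motifs of regulators of these cells, the E-box CANNTG bound by bHLH dimers and GGCGCC, the GC-rich core of BMP-responsive SMAD1/5 sites, and the 30 bases around each match are shown with the motif in capitals, since BMP and bHLH factors are the regulators that the results below turn to. The GGCGCC match of Id2 was 231 bases before the start, at chr12:25096306-25096335 on the minus strand, that of Id4 148 bases before it, at chr13:48260956-48260985 on the plus strand, and the E-box match of Id2 196 bases before it, at chr12:25096271-25096300 on the minus strand. The RefSeq start used for Id2 lies inside the longer GENCODE gene model, so its windows fall within that model.
Id2 GGCGCC: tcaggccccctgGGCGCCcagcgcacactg
Id4 GGCGCC: ctcgggttgcccGGCGCCccgccctcgcca
Id2 E-box: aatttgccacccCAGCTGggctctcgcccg
Across 32851 RefSeq promoters of the same window, 66.2% held an E-box and 9.59% held GGCGCC, so such matches are found in many other promoters. Neither motif was found for Id3, and Id4 had no E-box there. The GLI motif TGGGTGGTC, held by 0.225% of promoters, and TATAAA, held by 12.4%, were in none of the 3 windows, which says nothing about binding elsewhere.

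Cells were clustered separately for tumors and WT with the Id genes and the pathway genes listed here held out, so that no member took part in defining a class. Node A-like clusters were led by genes of S to M phase, Node B-like by genes of G1 to early S phase and early CGNPs, Node C-like by genes of early neuronal differentiation and Node D-like by genes of late differentiation, and these together are called CGNP-like cells (5058 in WT, 17193 in Vehicle and 11005 in Vismodegib). Levels are given in CPM, the UMIs of a gene per 1000000 UMIs of that class in that animal, as mean ± SD over animals. The animals had 2310474 to 17708677 UMIs and 805 to 8103 cells each, with medians of 1082.5 to 2597 UMIs per cell, and any 2 libraries shared at most 13 barcodes. Tumors were divided into 2 sets by the sign of the first principal component of their CGNP-like sums. Each treatment group's mean was subtracted first, and the component held 36.7% of the remaining variance. Vehicle 1 and 3 and Vismodegib 1 and 2 lay on one side and the other 6 tumors on the other side. Vismodegib 3 (7.62) and Vehicle 2 (12.65) lay nearest the cut, in a range of -43.27 to 38.48. The main treatment results below are also given within these sets. Since the sets came from these data and the treatment labels, the p-values within sets, which are unadjusted, are a description. Clusters led by hemoglobin genes, 2 in WT and 1 in tumors, and a WT cluster that scored higher for unipolar brush cell genes than for its own node were retained, and the results that changed without them are named. A tumor cluster of 164 Node D-like cells led by Gabra6 and Cbln3, genes of mature granule neurons, scored higher for general neuron markers than for its node, and was retained throughout.

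The 4 members were spread differently over the cell classes, as the plot by class shows. In Vehicle tumors, Id1 was highest in endothelial-like cells (733 ± 305 CPM, n = 5) and astrocyte-like cells (388 ± 136), 2 levels whose ranges overlapped, and it was 45.4 ± 11.8 in CGNP-like cells, with every CGNP-like value below every value of those 2 classes. Id3 was likewise highest in astrocyte-like cells (1571 ± 668), endothelial-like cells (1186 ± 262) and vascular fibroblast-like cells (661 ± 509), in an order that the spread did not resolve, and was only 11 ± 3.55 in CGNP-like cells. Id4 was found chiefly in astrocyte-like cells (390 ± 205), against 4.26 ± 0.81 in CGNP-like cells. Id2 was broad, at 716 ± 346 in astrocyte-like cells, 485 ± 96.0 in CGNP-like cells, 407 ± 164 in oligodendrocyte precursor-like cells and 389 ± 161 in microglia-like cells, 4 levels with overlapping ranges. Its UMIs were few in other classes. Endothelial-like cells held 0.0263% of them while being 0.346% of cells, and vascular fibroblast-like cells 0.179% while being 0.504%.

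WT cerebella held further classes with Id2 or Id1. Purkinje-like cells, the large GABAergic output neurons of the cerebellar cortex, carried 4350 ± 897 CPM of Id2 (3756 to 5899 in the 5 mice), above every value of WT CGNP-like cells (498, 593, 637, 560 and 499). This rests on 107 Purkinje-like cells. GABAergic progenitor-like cells had 168 ± 88.8 CPM of Id1. WT astrocyte-like cells had 423 ± 117 CPM of Id1, 1468 ± 418 of Id2, 1930 ± 427 of Id3 and 250 ± 34.1 of Id4.

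**Figure D1:**
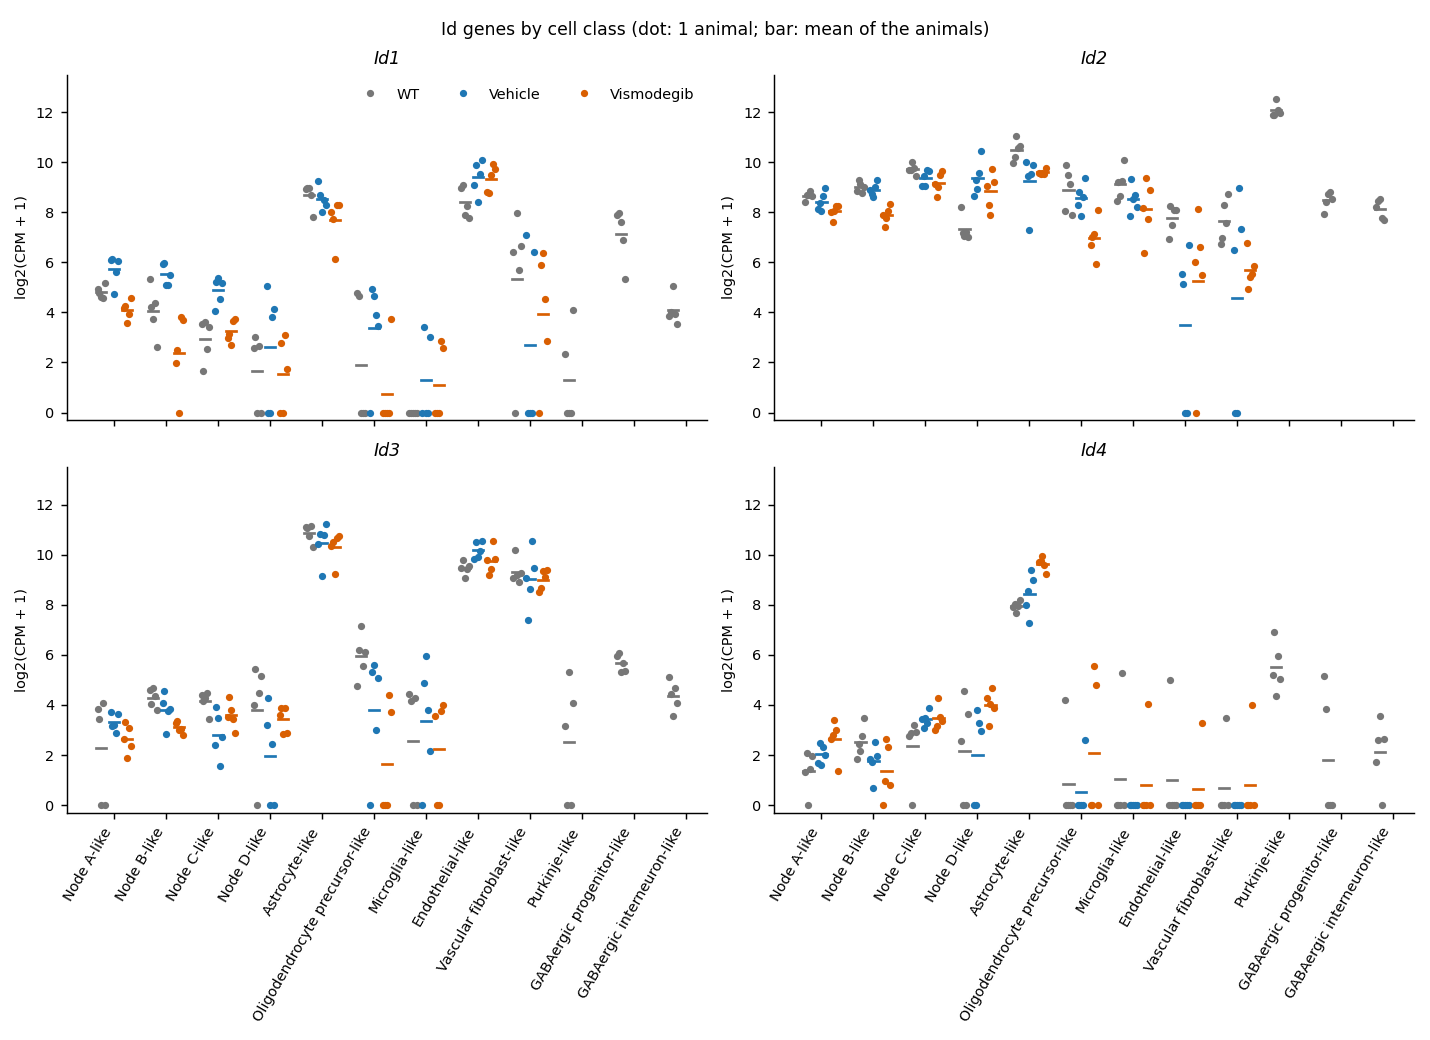
Level of each Id gene by cell class, as log2(CPM + 1), with 1 dot per animal of WT, Vehicle and Vismodegib. Id1 and Id3 lie highest in astrocyte-like and endothelial-like cells, and Id4 in astrocyte-like cells. Id2 is spread over more classes, with its highest values in WT Purkinje-like cells (3756 to 5899 CPM) and little in endothelial-like cells of Vehicle tumors.

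Because CGNP-like cells made up most of each tumor, a low level per cell could still amount to a large part of the UMIs of some members. In Vehicle tumors, 83.6% ± 5.01 of Id1 UMIs, 94.3% ± 2.23 of Id2, 28.4% ± 14.1 of Id3 and 51.1% ± 24.7 of Id4 were found in CGNP-like cells, and for Id4 the 5 tumors ranged from 26.5% to 82.4%. The part of free RNA in these UMIs was not tested. In Vismodegib tumors the CGNP-like part was 34.1% for Id1, 87.9% for Id2, 11.9% for Id3 and 20.5% for Id4, while astrocyte-like cells held 35.8% of Id1 and endothelial-like cells 26.4%. In WT, astrocyte-like cells held 47.6% of Id1, 71.1% of Id3 and 71.2% of Id4, and Purkinje-like cells 21.3% of Id2.

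**Figure D2:**
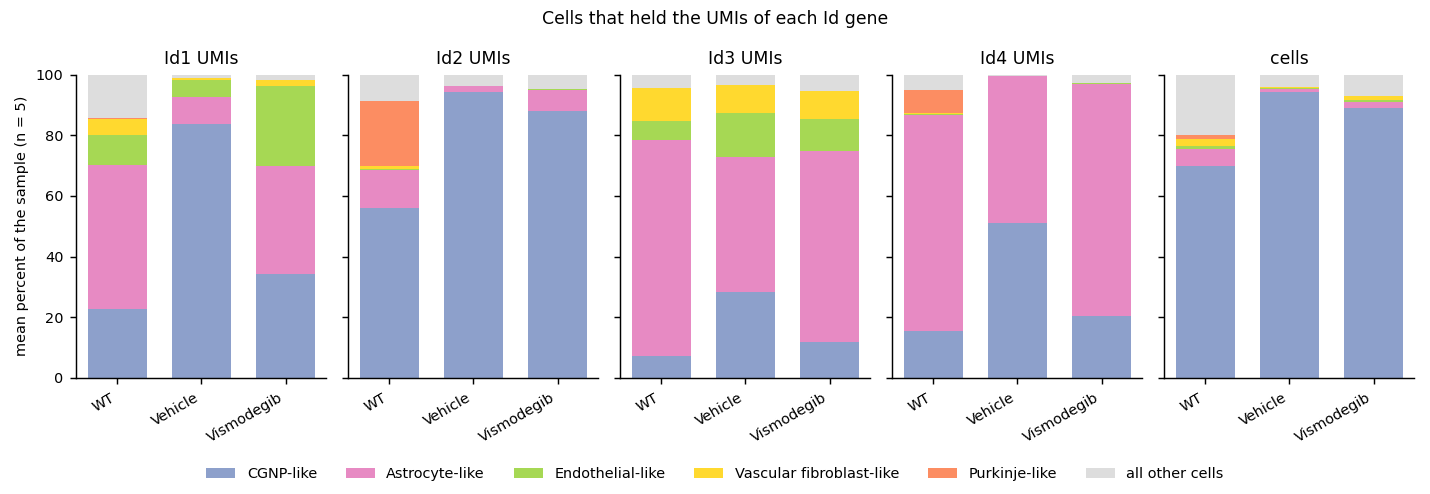
Mean percent of the UMIs of each Id gene found in each cell class, stacked for WT, Vehicle and Vismodegib, with the percent of cells in each class beside them. The CGNP-like part of Id1 is 83.6% in Vehicle and 34.1% in Vismodegib tumors, whereas that of Id2 is 94.3% and 87.9%.

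Along the lineage over the 10 tumors, Vehicle and Vismodegib together, Id2 and Id4 were higher in Node C-like than in Node B-like cells, and Id1 was lower after Node A and after Node C. From Node A-like to Node B-like cells, Id1 was lower in 9 of 10 tumors, with a mean change of -0.96 in log2(CPM + 1) (2-sided exact permutation of signs, p = 0.0375 after Benjamini-Hochberg adjustment over 12 tests). Id1 was lower again from Node C-like to Node D-like cells in 9 of 10 tumors, by -1.99 (adjusted p = 0.0375, same exact test). Id2 was higher in Node C-like than in Node B-like cells in 10 of 10 tumors, by 0.87 (adjusted p = 0.0117, same exact test). Id4 was lower in Node B-like than in Node A-like cells in 8 of 10 tumors, by -0.79 (adjusted p = 0.0375), and higher in Node C-like than in Node B-like cells in 10 of 10 tumors, by 1.91 (adjusted p = 0.0117), both by the same exact test. No step of Id3 passed the threshold, the nearest being 0.46 from Node A-like to Node B-like cells (adjusted p = 0.0547, exact permutation). With another clustering the Node A-like to Node B-like step was -0.57 for Id1 (adjusted p = 0.174) and -0.70 for Id4 (adjusted p = 0.141), and the Node B-like to Node C-like step of Id2 was 0.40 (adjusted p = 0.0586), all by the same exact permutation. The 3 steps at an adjusted p of 0.0375 had one of up to 0.075 (exact permutation) without single tumors. The Node A-like to Node B-like call remained only without Vehicle 1 or 3 for Id1 and only without Vehicle 1 or 4 for Id4, and the Node C-like to Node D-like call of Id1 only without Vehicle 1, whereas the steps of Id2 and Id4 into Node C-like cells passed in each case. Apart, the 2 groups of tumors gave unequal values. From Node A-like to Node B-like cells Id1 differed by -0.21 in Vehicle (lower in 4 of 5 tumors) and by -1.71 in Vismodegib (5 of 5), and Id4 by -0.28 (3 of 5) and -1.29 (5 of 5). From Node B-like to Node C-like cells Id2 differed by 0.47 in Vehicle and 1.27 in Vismodegib, and Id4 by 1.70 and 2.12, each higher in 5 of 5 tumors, and from Node C-like to Node D-like cells Id1 differed by -2.27 (4 of 5 lower) and -1.71 (5 of 5). With 5 tumors no exact p can be below 0.0625, and the difference between the groups in these steps was not tested. Id4 averaged just 2.40 CPM in Node B-like and 10.3 in Node C-like cells. In WT, where the same limit holds, Id2 was lower in Node D-like than in Node C-like cells in all 5 mice, by -2.40. All 470 WT Node D-like cells, however, belonged to a single cluster with Eomes and Calb2 among its leading genes. Eomes marks unipolar brush cells. Calb2 was listed here with their genes, while the paper uses it as a granule neuron marker. The WT step thus rests on that cluster and is not compared with tumors here. In tumors, 1 Node D-like cluster had Calb2 among its leading genes, and a Node C-like cluster had Eomes. The tumor steps of Id2 and Id4 into Node C-like cells include that Eomes cluster.

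**Figure D3:**
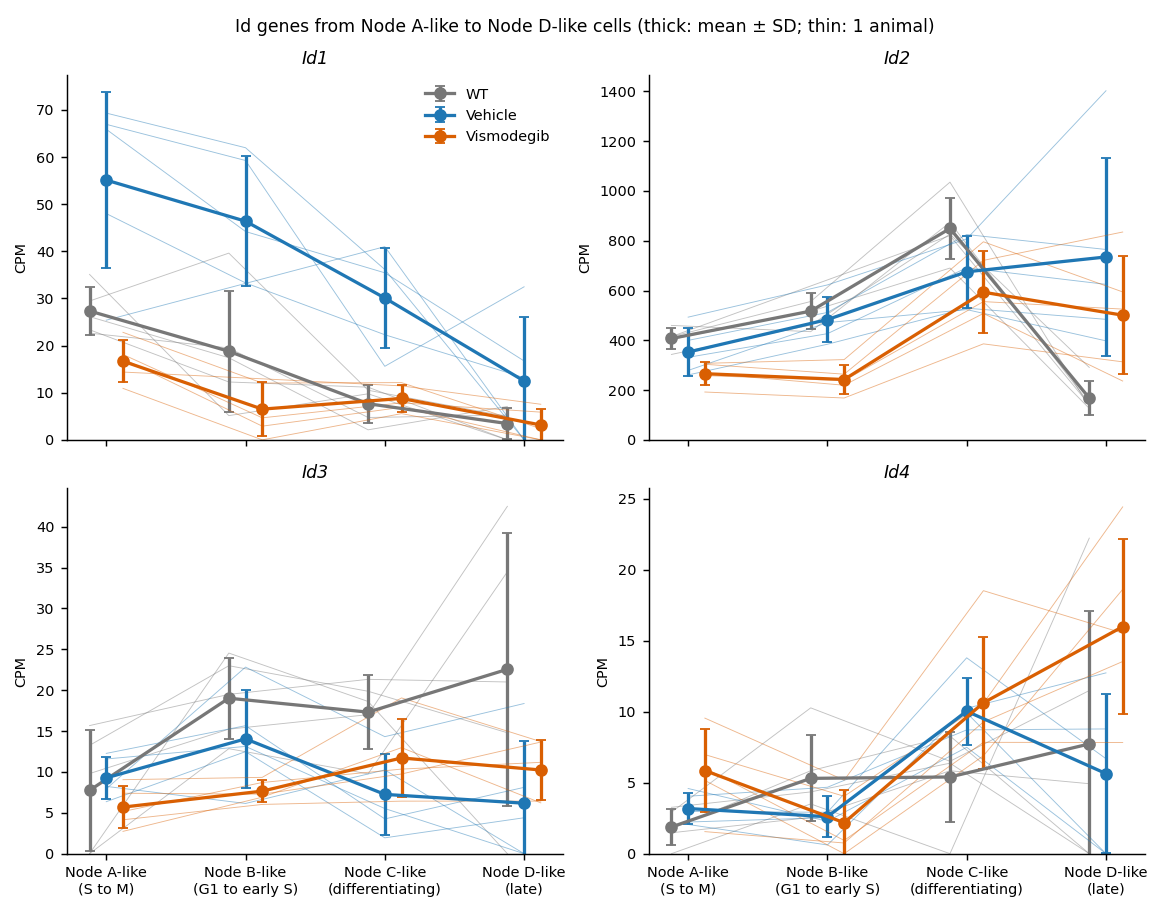
Level of each Id gene in CPM from Node A-like to Node D-like cells, as mean ± SD over 5 animals for WT, Vehicle and Vismodegib, with thin lines for single animals. Id1 in Vehicle tumors lies above Vismodegib in Nodes A to C, and Id2 is higher in Node C-like than in Node B-like cells in all 10 tumors.

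The next comparison asked which Id genes followed SMO inhibition in the tumor cells. In CGNP-like cells, Id1 was 52.6, 57.7, 30.6, 35.2 and 50.9 CPM in the 5 Vehicle tumors and 7.55, 9.52, 5.06, 11.2 and 11 CPM in the 5 Vismodegib tumors. Every treated tumor was below every Vehicle tumor, as held for 3.66% of genes, while 6.2% had no overlap in the opposite direction. Id1 fell by 2.29 on the log2 scale (SE 0.24, adjusted p = 0.000128, edgeR quasi-likelihood test over 12452 genes), resting on 1703 UMIs in Vehicle and 243 in Vismodegib. In this comparison 4.63% of genes tested were called lower and 8.39% higher (13% in either direction), and of the 4 members Id1 was called lower and Id4 higher. The fall of Id1 was as large in each set of tumors, from 41.6 to 8.54 CPM on average in the set of Vehicle 1 and 3 and from 48.0 to 9.11 in the other set (exact permutation within sets, p = 0.0167, the smallest that 120 arrangements can give).

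By node, Id1 fell in Node A-like, Node B-like and Node C-like cells, while in Node D-like cells it was below the filter on low counts and not tested. In Node A-like cells Id1 was 66.9, 69.3, 25.4, 48.0 and 65.9 CPM in Vehicle and 17.2, 18.1, 10.9, 14.4 and 22.8 in Vismodegib tumors, a change of -1.70 (SE 0.28, edgeR adjusted p = 0.0027, against 2.14% of genes called). In Node B-like cells it was 59.3, 62.0, 33.2, 33.3 and 44.2 against 2.90, 4.67, 0, 12.9 and 12.1, a change of -2.60 (SE 0.41, edgeR adjusted p = 0.00274, against 3.05% of genes called). The groups did not overlap in either node, and the share of all genes without overlap is not given for these nodes. In Node C-like cells the change was -1.66 (SE 0.31, edgeR adjusted p = 0.0122, against 1.15% of genes called), with Vehicle values of 15.6 to 41.0 CPM and Vismodegib values of 5.56 to 12.1. This last call was lost with another clustering, where the change was -1.18 (edgeR adjusted p = 0.27). Among single tumor clusters, Id1 averaged 49.2 CPM in Vehicle and 7.30 in Vismodegib in the Node B-like cluster led by Hes1, 59.0 and 9.0 in the largest Node A-like cluster, and 34.8 and 19 in a Node A-like cluster with Myod1 among its leading genes.

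Counted by cells rather than by UMIs, the result was similar. With each cell thinned to 500 UMIs, 1.96% ± 0.498 of Vehicle CGNP-like cells had an Id1 UMI against 0.443% ± 0.0836 in Vismodegib tumors (2-sided exact permutation, p = 0.00794, adjusted p = 0.0317 over 4 genes), and in microglia-like cells, taken here as a class that makes little Id1, the shares were 0.556% and 0.179%. Without thinning, 6.95% and 1.69% of CGNP-like cells had an Id1 UMI, at median depths of 1133.5 to 2641 and 1149 to 2439 UMIs per cell, against 0.94% and 0.735% of microglia-like cells at 1341 to 2737.5 and 1535.5 to 3029. Shares of cells with a UMI of Id2 (20.4% and 18.1%), Id3 (0.536% and 0.496%) and Id4 (0.185% and 0.535%) had adjusted p-values of 0.540, 0.643 and 0.175 by the same exact test.

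Id2, the most abundant member in UMIs, gave a different picture. In CGNP-like cells as a whole it was 436, 454, 371, 550 and 613 CPM in Vehicle and 367, 252, 310, 578 and 511 in Vismodegib tumors, overlapping groups with a change of -0.26 (SE 0.23, edgeR adjusted p = 0.542). In Node B-like cells, however, it was 471, 427, 384, 512 and 622 CPM in Vehicle against 238, 168, 219, 264 and 322 in Vismodegib. All 5 treated tumors were below all 5 Vehicle tumors there, a separation whose share over all genes is not given for this node. Id2 fell there by 0.98 on the log2 scale (SE 0.19, edgeR adjusted p = 0.0109, against 3.05% of genes called). Node B-like cells pooled several clusters, among them the one led by Hes1, and how these shifted with treatment is not given here. Level and make-up within this node thus cannot be told apart for Id2. Within the sets, Node B-like Id2 went from 428 to 203 and from 520 to 269 CPM (exact permutation within sets, p = 0.0167). Changes were -0.42 in Node A-like (edgeR adjusted p = 0.417), -0.18 in Node C-like (0.805) and, where 0.0535% of genes were called, -0.53 in Node D-like cells (0.913). The shares of the nodes themselves moved with treatment, Node B-like from 46.2% to 21.6% of cells and Node D-like from 4.62% to 25.7% (both exact permutation, adjusted p = 0.0132), so a level over all CGNP-like cells mixes these nodes in different proportions.

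Outside the granule lineage, Id2 was examined in glia. In oligodendrocyte precursor-like cells, where ID2 is known to hold back differentiation, it was 314, 449, 228, 384 and 661 CPM in Vehicle and 103, 129, 139, 60.2 and 271 in Vismodegib tumors, with 1 overlapping pair of tumors. That change of -1.61 (SE 0.36) did not pass the threshold (edgeR adjusted p = 0.0776, against 0.135% of genes called), and it did pass without Vehicle 1, Vehicle 3 or Vismodegib 5 (-2.36 without the last), but was weakest without Vismodegib 4 (-1.14, edgeR adjusted p = 0.613). Within the sets it went from 271 to 116 and from 498 to 157 CPM (exact permutation within sets, p = 0.0167). With precursor-like and oligodendrocyte-like cells summed as 1 lineage, as planned, the change was -2.25 (edgeR adjusted p = 0.000608, against 5.15% of genes called), from 251 to 45.1 CPM in one set of tumors and from 470 to 89.2 in the other set (exact permutation within sets, p = 0.0167). The make-up of this sum shifted, from 391 precursor-like and 25 oligodendrocyte-like cells in Vehicle to 85 and 69 in Vismodegib tumors, and Id2 was lower in oligodendrocyte-like cells (45.4 and 12.7 CPM, over the 2 Vehicle and 4 Vismodegib tumors with at least 5 such cells), so level and make-up cannot be told apart in it. Precursor-like cells were also fewer, 2.07% of cells in Vehicle and 0.646% in Vismodegib tumors, and they were examined alone only after the data had been seen. In microglia-like cells Id2 differed by -0.14 (edgeR adjusted p = 0.95, against 0.318% of genes called) and in astrocyte-like cells by 0.06 (0.929).

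Id3 was low in CGNP-like cells. It was 12.7, 15.9, 7.46, 7.74 and 11.2 CPM in Vehicle and 8.50, 12.4, 6.90, 9.99 and 5.78 in Vismodegib tumors, overlapping groups with a change of -0.33 (SE 0.28, edgeR adjusted p = 0.497). By node the change was -0.65 in Node A-like (edgeR adjusted p = 0.486) and -0.90 in Node B-like cells (0.206). Means in Vehicle and Vismodegib were 7.26 and 11.7 CPM in Node C-like and 6.18 and 10.2 in Node D-like cells, where Id3 was not tested. As for Id2, Id3 over all CGNP-like cells mixes nodes whose shares moved. In microglia-like cells it was 21.2 ± 24.9 CPM in Vehicle, from 6 UMIs, 7.63 ± 7.13 in Vismodegib and 11.2 ± 10.3 in WT, and in each group these values overlapped those of CGNP-like cells, so Id3 in CGNP-like cells was not above that of microglia-like cells beyond the spread. In the classes that express Id3, changes were -0.25 in astrocyte-like cells (edgeR adjusted p = 0.73), -0.27 in endothelial-like cells (0.809) and -0.25 in vascular fibroblast-like cells (0.842, against 1.43% of genes called). Within the sets, astrocyte-like Id3 went from 963 to 1379 CPM in one and from 1976 to 1315 in the other (exact permutation within sets, p = 0.833).

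Id4 moved in the opposite direction from Id1. In CGNP-like cells it was 3.67, 4.09, 3.48, 5.50 and 4.55 CPM in Vehicle and 5.67, 5.19, 11.5, 13.1 and 7.49 in Vismodegib tumors. The groups overlapped in Vehicle 4 and Vismodegib 2, and Id4 rose by 1.03 on the log2 scale (SE 0.31, edgeR adjusted p = 0.0465). The call was close to the threshold. Without single tumors the change was 0.78 to 1.17 with an edgeR adjusted p of 0.0260 to 0.161, and the call remained only without Vehicle 4, Vismodegib 1 or Vismodegib 2. It was also lost with a replicate block, with no filter on low counts and with cell limits at 4 SD. Within the sets Id4 went from 3.58 to 5.43 and from 4.71 to 10.7 CPM (exact permutation within sets, p = 0.0167). By node, where Id4 fell below the filter on low counts and was not tested, it was 3.18 ± 1.11 in Vehicle and 5.86 ± 2.91 CPM in Vismodegib in Node A-like cells, 2.61 ± 1.46 and 2.18 ± 2.28 in Node B-like, 10.04 ± 2.37 and 10.6 ± 4.64 in Node C-like, and 5.65 ± 5.59 and 16 ± 6.15 in Node D-like cells. The means differed most in Node D-like cells, where Vehicle rests on 6 UMIs, and as for Id2 the value over all CGNP-like cells also mixes nodes whose shares moved. In microglia-like cells of Vismodegib tumors Id4 was 3.1 ± 6.94 CPM (0 to 15.5, from 5 UMIs in 329 cells), which overlapped the CGNP-like values of those tumors, so Id4 in CGNP-like cells, like Id3, was not above that of microglia-like cells beyond the spread. In Vehicle tumors, which had 6 to 104 microglia-like cells each, 0 Id4 UMIs were found in 200 such cells (upper limit 1.5% of cells). The share of Vehicle CGNP-like cells with an Id4 UMI, 0.921% without thinning, lies below that limit, so these counts do not resolve the comparison. In astrocyte-like cells Id4 was 251, 371, 154, 672 and 502 CPM in Vehicle and 828, 849, 980, 771 and 600 in Vismodegib tumors, a change of 0.90 (SE 0.27, edgeR adjusted p = 0.0685, against 3.21% of genes called) that passed without Vehicle 4 (1.13, edgeR adjusted p = 0.0353). Within the sets it went from 202 to 838 and from 515 to 784 CPM (exact permutation within sets, p = 0.0333). The astrocyte-like class was made of different clusters in the 2 groups, counted here over tumors with at least 5 cells of a cluster. In such Vehicle tumors 68 cells were in a cluster with Ednrb and Fabp7 among its leading genes, where Id4 was 35.6 CPM in Vehicle and 82.2 in Vismodegib, and 5 were in the cluster with Aqp4 and Gfap among its leading genes. In such Vismodegib tumors those clusters held 11 and 117 cells, and Id4 was 912.6 CPM in the Aqp4 and Gfap cluster.

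Markers of astrocytes in CGNP-like cells are given beside Id4, since most Id4 UMIs of treated tumors were found in astrocyte-like cells. The 9 astrocyte markers summed to 566 ± 109 CPM in CGNP-like cells of Vehicle (408 to 688) and 394 ± 53.1 of Vismodegib tumors (358 to 487), and 4 of the 9 had a higher mean in Vismodegib. These 4 were Aqp4, a water channel of astrocyte endfeet (7.22 ± 5.41 and 24.5 ± 11.4 CPM), Aldoc (9.30 and 19.2), Hopx (1.59 and 4.57) and Gja1 (7.01 and 8.16). Of the others, Slc1a2 was 239 and 182, Sparcl1 153 and 54.0, Slc1a3 88.0 and 43.8, Fabp7 46.4 and 43.8 and Gfap 14 and 13.8. Slc1a2, Sparcl1 and Slc1a3 made up most of the sum in CGNP-like cells, and so of the marker UMIs in the ratio below. In astrocyte-like cells Slc1a2 was 1060 and 2133 CPM, against 3563 and 7491 for Aqp4, so Slc1a2 was less confined to that class. Id4 per 100 astrocyte marker UMIs was 0.797 in Vehicle and 2.14 in Vismodegib CGNP-like cells, against 1.21 and 2.02 in astrocyte-like cells. Their part in the Id4 result was not tested.

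Over all cells of a tumor, where fewer cells of a type and less RNA per cell cannot be told apart, the change was -1.11 for Id1 (edgeR adjusted p = 0.00838), -0.31 for Id2 (0.405), 0.74 for Id3 (0.188) and 1.76 for Id4 (0.00897), against 13.9% of genes called. Astrocyte-like cells were 0.903% of cells in Vehicle and 2.02% in Vismodegib tumors (exact permutation, adjusted p = 0.0198).

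**Figure D4:**
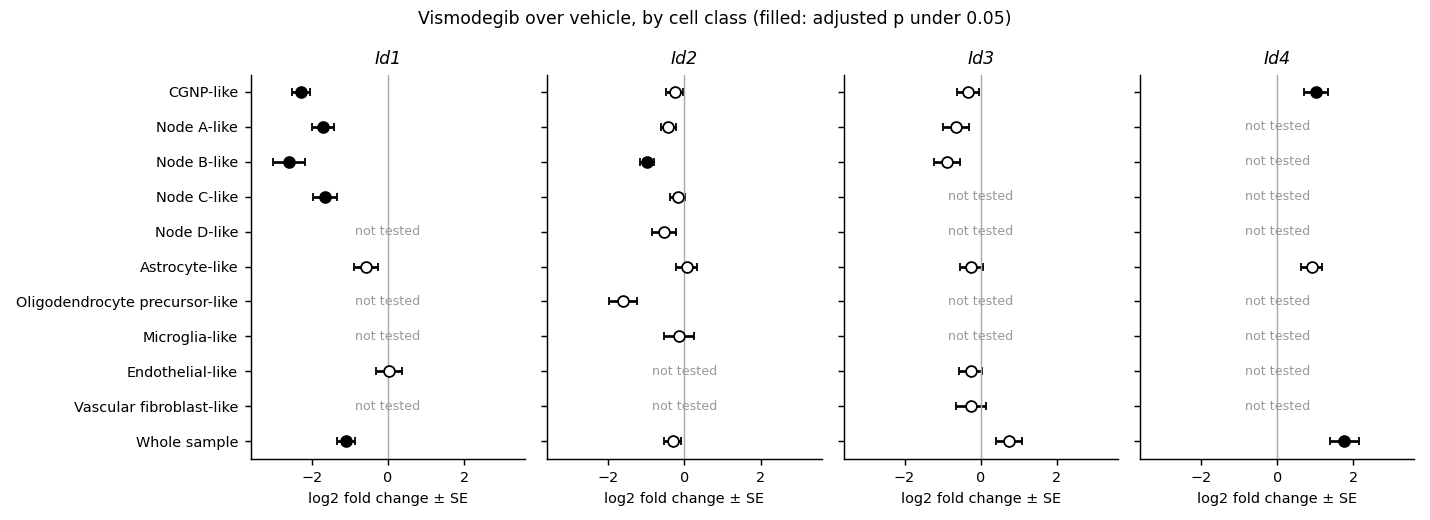
Change of each Id gene in Vismodegib over Vehicle tumors by cell class, as log2 fold change ± SE from edgeR, with filled symbols where the adjusted p was below 0.05. Id1 is called lower in CGNP-like cells (-2.29) and in Nodes A, B and C, Id2 is called lower in Node B-like cells (-0.98), and Id4 is called higher in CGNP-like cells (1.03).

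The differences between members and between classes were tested directly. Ratios of members were taken over all CGNP-like cells, a mix of nodes whose shares moved with treatment. In those ratios level and make-up cannot be told apart. In CGNP-like cells the log2 ratio of Id1 to Id2 was lower in Vismodegib than in Vehicle tumors by -1.93, that of Id1 to Id3 by -1.94, that of Id1 to Id4 by -3.04 and that of Id2 to Id4 by -1.11 (2-sided exact permutation, adjusted p = 0.0119 each over 6 pairs, no overlap of the groups, smallest possible unadjusted p = 0.00794). The ratio of Id2 to Id3 differed by -0.01 (adjusted p = 1) and that of Id3 to Id4 by -1.10 (adjusted p = 0.0571), both by the same exact test. Between classes, the effect on Id1 was more positive by 1.99 in astrocyte-like than in CGNP-like cells (SE 0.32, edgeR interaction test, adjusted p = 2.2e-07, against 2.64% of genes called) and by 2.50 in endothelial-like cells (SE 0.42, edgeR adjusted p = 3.22e-06, against 0.57% of genes called). Id1 in astrocyte-like cells was 609, 410, 257, 354 and 310 CPM in Vehicle and 259, 209, 68.8, 316 and 308 in Vismodegib tumors, overlapping groups with a change of -0.57 (edgeR adjusted p = 0.339). In endothelial-like cells the change was 0.03 (edgeR adjusted p = 0.976, where 0% of genes were called and 36 of 446 had an unadjusted p below 0.05). For Id2 the effect was more negative in the oligodendrocyte lineage than in CGNP-like cells, by -2.10 (edgeR adjusted p = 4.65e-09, against 7.13% of genes called). Of 19 such tests, these 3 and that of Id2 in precursor-like cells alone (-1.63, edgeR adjusted p = 6.23e-05, against 4.78% of genes called) passed the threshold. None of the tests against microglia-like or vascular fibroblast-like cells did, where 1.55% and 0.818% of genes were called. The make-up of CGNP-like cells, in every such test, and of astrocyte-like and oligodendrocyte lineage cells shifted with treatment. Level and make-up thus cannot be told apart in these tests. The precursor-like cells are also part of the oligodendrocyte lineage. Endothelial-like cells numbered 6 to 20 per Vehicle and 9 to 19 per Vismodegib tumor.

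Vehicle tumors were next set against WT, with age, genotype and device differing together. In CGNP-like cells Id1 was 25.3, 13.1, 13.3, 14.4 and 15.1 CPM in WT, below every Vehicle tumor. The share of all genes without overlap is not given for this comparison. Id1 was higher in Vehicle by 1.35 on the log2 scale (SE 0.23, edgeR adjusted p = 0.000251, against 44.4% of genes called). By node the difference was 0.88 in Node A-like (edgeR adjusted p = 0.0197), 1.04 in Node B-like (0.0166) and 1.91 in Node C-like cells (0.00111), where 32.2%, 38.4% and 31.5% of genes were called. The Node A-like call was lost without WT 1 (0.87) or WT 4 (0.82) and with another clustering (0.60, edgeR adjusted p = 0.146). The Node B-like value was 2.06 (edgeR adjusted p = 0.00275) when the clusters with hemoglobin or unipolar brush cell genes were left out. Vismodegib tumors, at 5.06 to 11.2 CPM, were below all WT values of 13.1 to 25.3, a comparison with no test run and no share over all genes given. Id2 in CGNP-like cells differed by -0.29 (edgeR adjusted p = 0.156) and Id4 by -0.15 (0.825). In Node C-like cells Id2 was lower in Vehicle than in WT by -0.47 (edgeR adjusted p = 0.046), a call that remained only without WT 5, Vehicle 4 or Vehicle 5 when single animals were left out, and Id3 was lower by -1.41 (edgeR adjusted p = 0.0137), a call lost only without WT 4 (-1.30). Over all CGNP-like cells Id3 was lower by -0.68 (edgeR adjusted p = 0.0476), from 16.4 to 11 CPM, and the call remained only without WT 5 or Vehicle 2 when single animals were left out (-0.82 to -0.55). That call was also lost with DESeq2, no filter, another clustering, a replicate block, and without the clusters with hemoglobin or unipolar brush cell genes.

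Glia and vessels differed from WT in their own way. In astrocyte-like cells of Vehicle tumors Id2 was lower than in WT, by -0.91 (edgeR adjusted p = 0.0139, against 23.4% of genes called), and Id4 was higher, by 0.88 (0.0134), whereas Id1 differed by -0.14 (0.755). The Id4 call was lost without WT 1 (0.80), Vehicle 4 (0.63) or Vehicle 5 (0.82), and that of Id2 with cells thinned to 500 UMIs (-0.60, edgeR adjusted p = 0.196). The astrocyte-like values rest on 6 to 123 cells per Vehicle tumor and 32 to 131 per WT mouse. WT and tumor cells were clustered apart and the make-up of this class was not compared, so level and make-up cannot be told apart. Endothelial-like cells, which in WT shared a cluster with pericyte genes while tumor pericyte-like cells stood apart, had more Id1 (1.00, edgeR adjusted p = 0.0235) and more Id3 (0.78, 0.0218) in Vehicle tumors than in WT, against 30.5% of genes called. These rest on 6 to 31 endothelial-like cells per animal, and both calls were lost without WT 5. The Id1 call was also lost without WT 3, WT 4, Vehicle 2 or Vehicle 5. Over all cells Id3 was lower in Vehicle than in WT by -1.85 (edgeR adjusted p = 0.000198), Id2 by -0.54 (0.0155) and Id4 by -0.98 (0.037), the last unlike its higher level in astrocyte-like cells, and Id1 differed by -0.08 (0.792), against 48% of genes called. The Id4 call over all cells remained only without Vehicle 4 or Vehicle 5 when single animals were left out. Astrocyte-like cells were 5.44% of WT and 0.903% of Vehicle cells, and Purkinje-like cells 1.37% and 0%. Over all cells, level and make-up thus cannot be told apart. Within astrocyte-like cells Id3 differed by -0.18 (edgeR adjusted p = 0.665).

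Genes of the BMP pathway were read from lists of ligands, receptors, SMADs, antagonists, E proteins and other followers of BMP signaling, 53 genes of which 52 were in the tables. In CGNP-like cells 31 of them could be tested, and 5 were lower with vismodegib and none higher (16.1% called, against 13% of all genes). Among receptors and co-receptors these were Acvr2b (-0.54), a type II receptor, and the repulsive guidance co-receptors Rgma (-1.35, edgeR adjusted p = 0.00351) and Rgmb (-0.76). The others were Fstl1 (-0.94), a secreted follistatin-like protein, and Hey1 (-0.93), a bHLH repressor. By node, 2 of 28 tested were called in Node A-like, 0 of 28 in Node B-like, 1 of 26 in Node C-like and 0 of 15 in Node D-like cells. Of all genes, 2.14%, 3.05%, 1.15% and 0.0535% were called in these nodes. The count over all CGNP-like cells mixes nodes whose shares moved. The 3 E proteins Tcf3, Tcf4 and Tcf12 were tested and none was called. The median log2 change of the listed genes was -0.013, against 0.004 for all genes. In astrocyte-like cells 5 listed genes were tested and none was called, against 3.21% of all genes.

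Against WT, 10 of the 31 listed genes were higher in Vehicle CGNP-like cells and 3 were lower (41.9%, against 44.4% of all genes). The 5 higher genes with the smallest p were Acvr2b (2.20), the signal transducer Smad1 (1.22), the protease Bmp1 (1.44), Rgmb (1.56) and Hey1 (1.28). The 3 lower genes were Bmpr1b (-2.38), a type I receptor, Acvr2a (-0.85), a type II receptor, and Smad7 (-0.93), an inhibitory SMAD. In astrocyte-like cells 3 of 8 tested were lower, the BMP-family ligand Gdf10 (-3.15), which Bergmann glia express, Tcf12 (-1.27) and Rgma (-0.91). The 3 higher genes there were Hey1 (1.74), Tcf4 (0.82) and Fstl1 (0.95), so 75% were called against 23.4% of all genes. The make-up of the astrocyte-like class was not compared between WT and tumors.

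The genes whose levels most resembled each member were sought over 36 profiles of class by group, which share libraries and depth, so the correlations are a description. Id1 was most like Vim (Pearson r = 0.81), an intermediate filament gene of glia and vessels, and Id3 most like Sparcl1 (0.95) and the basement membrane gene Nid1 (0.94). Id4 was most like the glutamate receptor gene Gria1 (0.80) and Aqp4 (0.78), and Id2 most like Ldhb (0.75), a lactate dehydrogenase subunit. By Spearman correlation, 1, 2, 3 and 0 of the 5 genes most like Id1, Id2, Id3 and Id4 were among these lists, with Eci2 (rho = 0.84) ranked highest for Id1, Snn (0.72) for Id2, Sparcl1 (0.90) for Id3 and Hspa4l (0.75) for Id4, so the lists of Id1 and Id4 depended on the measure. Of the pairs of members, Id1 and Id3 had the highest correlation over these profiles (0.75). Within single cells thinned to 500 UMIs, counts of cells with UMIs of both members are given as a description, since they are sparse. In Vehicle CGNP-like cells 74 cells held both Id1 and Id2, where 78.8 would be expected from their separate shares. There 14 held Id2 and Id3, against 20.1 expected, and 5 held Id1 and Id3, against 2.02. In Vismodegib CGNP-like cells 8 held Id1 and Id2, against 9.77, and 11 held Id2 and Id3, against 9.73. In astrocyte-like cells Id2 and Id3 were found together in 98 WT cells against 91.2 expected, in 40 Vehicle cells against 30.7 and in 34 Vismodegib cells against 29.1. Other astrocyte-like pairs of WT lay on either side, with Id1 and Id3 in 49 cells against 40.3, Id1 and Id4 in 3 against 6.21 and Id2 and Id4 in 14 against 15.3. In tumors the 6 astrocyte-like pairs all lay above expectation, Id1 and Id4 with 7 cells against 5.32 in Vehicle and 14 against 7.7 in Vismodegib tumors, and Id1 and Id2 with 12 against 9.55 and 15 against 8.44.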

How the data were processed

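Drop-seq libraries of 15 mice were measured, 5 WT, 5 Vehicle and 5 Vismodegib, and the labels and methods give each as a separate animal. The deposited values are counts, raw UMI counts per gene and cell barcode. The authors made them with bcl2fastq 2.18, Drop-seq Tools and STAR against mm10 with added Cre and SmoM2/EYFP sequence, in tumors after a mixed human and mouse alignment that retained barcodes above their limit of mouse reads, and analyzed them in Seurat 2.3.0. The annotation version was not given in the sources used here. WT tables held 3000 barcodes each.

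Cells with at least 500 UMIs and 500 genes, and no more than 5 SD above the sample's median in UMIs, genes or mitochondrial share, were retained. No doublet caller was run. Tumor and WT cells were clustered apart (principal components, Louvain resolution 0.8) without the Id and pathway genes, and clusters were named from marker lists. A difference from the study's own clusters may come from these rebuilt names. UMI counts were summed per animal and class with at least 5 cells and compared with the edgeR 4.0.16 quasi-likelihood test (TMM, filterByExpr, Benjamini-Hochberg over all genes tested, adjusted p below 0.05). Single values were compared by 2-sided exact permutation of log2(CPM + 1), a pseudocount of 1 CPM. Scripts were tested on simulated data. The members, lists and classes were chosen with earlier results of these data known. The named genes were the 4 members, up to 5 called pathway genes per direction by smallest p in CGNP-like and astrocyte-like cells, and the 5 genes most like each member among those with a mean of at least 50 CPM. Alternatives were DESeq2 1.42.0, other filters, thinning, clustering, pseudocount, a replicate block, a set term and leaving out animals. Counting intervals and limits cover counting error only.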

Additional observations from a re-analysis of the deposited data

Results flagged for a closer look

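Single animals stood apart in 8 of 108 groups of values tested, where chance alone marks about 1 in 20. In CGNP-like cells, WT 1 was high for Id1 (25.3 CPM) and WT 5 was low for Id3 (9.78 CPM). WT 1 was also high for Id2 in Node D-like cells (291 CPM), the class in which WT held unipolar brush cell genes. For Id2, WT 3 was high in Purkinje-like cells (5899 CPM) and over all cells (871 CPM), and Vismodegib 5 was high in astrocyte-like cells (859 CPM). For Id3, WT 4 was high in the oligodendrocyte lineage (128 CPM) and WT 2 in vascular fibroblast-like cells (1156 CPM).

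The effect of vismodegib differed between cell classes in 4 tests of the difference itself. For Id1 it was more positive than in CGNP-like cells by 1.99 on the log2 scale in astrocyte-like cells and by 2.50 in endothelial-like cells. For Id2 it was more negative than in CGNP-like cells by -2.10 in the oligodendrocyte lineage and by -1.63 in oligodendrocyte precursor-like cells alone, which are part of that lineage. Since the make-up of CGNP-like cells and of other classes shifted with treatment, level and make-up cannot be told apart in these 4 tests. Permuting the treatment of whole tumors gave values of 1.38, 2.17, -2.17 and -1.30 for these 4, each with an adjusted p of 0.0377 by exact permutation.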

How the results depend on the processing

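The fall of Id1 in CGNP-like cells with vismodegib passed the threshold in every alternative run, and was -2.40 to -2.16 without single tumors. With another clustering (30 components, resolution 1.2), node steps were -0.57 (adjusted p = 0.174, exact permutation) for Id1 and -0.70 for Id4 from Node A-like to Node B-like, 0.40 for Id2 from Node B-like to Node C-like, and 0.80 for Id2 from Node C-like to Node D-like, where the main value was -0.17. With a pseudocount of 10 CPM, the Node B-like to Node C-like step of Id1 was -0.13 and the Node A-like to Node B-like step of Id3 passed at 0.24. The rise of Id4 in CGNP-like cells did not pass with no filter (0.96) or with limits at 4 SD (1.03). The lower Id3 in Vehicle than in WT CGNP-like cells did not pass with DESeq2 (-0.62), no filter (-0.48), another clustering (-0.51) or mixed clusters left out, chosen after seeing the data (-0.68), and Id4 there was 0.059 with no filter. Genes called in CGNP-like cells numbered 2644 with the set of tumors as a term, against 1621. The sets were drawn from these same counts, so that number is a description. For Vehicle against WT the genes called numbered 2934 with cells thinned to 500 UMIs and 3717 with sums thinned to 1 total, against 5585. Paired differences between classes, permuted over tumors, turned the sign of 5 treatment effects that were not called, Id2 (-0.092) and Id3 (-0.81) in microglia-like, Id3 in endothelial-like (-0.13), Id2 in vascular fibroblast-like (1.44) and Id1 in oligodendrocyte precursor-like cells (-0.40). The cause of these changes was not tested.

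Same-numbered Vehicle and Vismodegib tumors had neighboring serial numbers, and correlations of their deviations from -0.14 to 0.42. Whether the replicate numbers pair the tumors was thus not settled, and the main tests used no pairing. With a replicate block the count of genes called was 1559, Id4 in CGNP-like cells was 0.93 with vismodegib (adjusted p = 0.0572, edgeR) and Id3 was -0.69 in Vehicle against WT (adjusted p = 0.0914, edgeR), and both missed the threshold. The block made the calls of Id2 in oligodendrocyte precursor-like cells (-1.71) and of Id3 over all cells (0.79) pass for vismodegib.

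Values that were not called changed sign as follows. With vismodegib, Id2 in astrocyte-like cells was -0.15 at 4 SD, -0.0017 with at least 20 cells and -0.51 with thinned cells, and Id1 in endothelial-like cells was -0.021 with the set and -0.020 with the serial number as a term. For Vehicle against WT, Id1 in astrocyte-like cells was 0.019 at 4 SD and 0.19 with thinned cells, Id3 there was 0.12 with another clustering and 0.051 with at least 20 cells, Id2 in oligodendrocyte precursor-like cells was 0.094 with another clustering, Id3 in vascular fibroblast-like cells was -0.085 with DESeq2 and -0.15 with no filter, and Id1 over all cells was 0.067 with no filter and 0.040 with all barcodes.

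Without single animals, the node steps were -1.11 to -0.67 for Id1 and -0.89 to -0.58 for Id4 and 0.36 to 0.55 for Id3 from Node A-like to Node B-like, -0.19 to 0.32 for Id1 from Node B-like to Node C-like, and -2.33 to -1.61 for Id1 from Node C-like to Node D-like. The treatment change of the ratio of Id2 to Id3 was -0.23 to 0.27 and that of Id3 to Id4 was -1.36 to -0.92. In CGNP-like cells Id4 was 0.78 to 1.17 with vismodegib, and in Vehicle against WT Id3 was -0.82 to -0.55 and Id4 -0.29 to 0.029. With vismodegib, Id2 was -0.11 to 0.18 in astrocyte-like and -0.41 to 0.15 in microglia-like cells, Id1 -0.16 to 0.24 in endothelial-like cells and Id3 -0.47 to 0.19 in vascular fibroblast-like cells. For Vehicle against WT, Id3 was -0.44 to 0.068 in Node A-like and -0.29 to 0.39 in vascular fibroblast-like cells, Id2 -0.044 to 0.47 in the oligodendrocyte lineage and Id1 -0.22 to 0.054 over all cells. The few cells of the rarer classes limit the precision of their values.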
